A study of Homo sapiens with 12 samples.

Results

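The genes described here are the FGF receptors FGFR1, FGFR2, FGFR3 and FGFR4, the receptor-like FGFRL1, and the ligands FGF1, FGF2, FGF5, FGF18 and FGF19. They were chosen by gene symbol, and each matched 1 row, so the set holds 10 of the 48114 genes measured. All 10 were among the 22544 genes tested in PANC-1 cells. FGFs are secreted growth factors that bind receptor tyrosine kinases together with heparan sulfate, and the activated receptor signals through FRS2, GRB2 and the RAS-ERK cascade. ERK activity in turn drives transcription of ETV factors, EGR1 and the SPRY, SPRED and DUSP inhibitors that dampen the pathway. FGFRL1 lacks the kinase domain, and FGF19 is an endocrine ligand that acts on FGFR4 mainly with the coreceptor KLB.

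PolyA RNA was sequenced from 2 established cell lines of pancreatic ductal adenocarcinoma (PDAC), with 3 biological replicates in each of 4 groups. PANC-1, which the study used as a basal-like line, received control siRNA (siCtrl), siRNA against the splicing regulator QKI (siQKI) or siRNA against the splicing regulator RBFOX2 (siRBFOX2) for 48 h, at 40 nM in the 2 knockdown groups. HPAF-II, which the study used as a classical line, received siCtrl for 48 h, so the line comparison rests on 1 line of each kind and no knockdown was made in HPAF-II. Values are normalized counts, that is gene counts divided by a size factor per library, and the siQKI and siRBFOX2 comparisons share the same 3 siCtrl libraries.

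QKI fell from 25533 ± 869 normalized counts in siCtrl to 5034 ± 412 in siQKI cells (mean ± SD, n = 3), a limma log2 fold change of -2.34. RBFOX2 fell from 15429 ± 76.8 to 2095 ± 352 normalized counts in siRBFOX2 cells, a log2 fold change of -2.89, and it was also lower in siQKI cells (-0.29, adjusted p = 0.0207). That last call held in 11 of 17 alternatives and was lost without siCtrl replicate 2 or 3 or siQKI replicate 1 or 3 (adjusted p = 0.0545, 0.0540, 0.0508 and 0.0585), among others. Size factors were estimated as the inverse of the smallest value above 0 in a library, assuming that it stands for 1 count. These estimates lay between 0.877 and 1.15 in PANC-1 and between 0.810 and 1.09 in HPAF-II libraries. Of the 8 epithelial and duct markers, all were above 0 in both lines. Their sum was 2872 to 2936 rescaled counts (each library set to a total of 1000000) in PANC-1 siCtrl, 2792 to 2968 in siQKI, 2386 to 2541 in siRBFOX2 and 11331 to 12152 in HPAF-II libraries. Of these, 1 rose and 2 fell in siQKI cells and 1 rose and 4 fell in siRBFOX2 cells. CDH1, which encodes E-cadherin, was the marker that rose (log2 fold change 1.39 and 0.53), while the duct factor SOX9 (-0.46 and -0.36) and the keratin KRT18 (-0.20 and -0.35) fell. The KRT18 call in siQKI cells was lost without a mean-variance trend (adjusted p = 0.0722).

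The 6-base motifs ACTAAC, to which QKI can bind, and TGCATG, to which RBFOX proteins can bind, were searched on the sense strand of a representative GENCODE transcript of each member. The motifs do not overlap in sequence. ACTAAC was present 2 times each in FGF1, FGF2 and FGF5 and 0 times in the 5 receptor genes, FGF18 and FGF19. It was present in 32.3% of transcripts within 20% of the length of FGF5 and in 44.3% of those like FGF2. TGCATG was present 1 time in each of FGFR2, FGFR3, FGFR4, FGFRL1, FGF18 and FGF19, 3 times in FGFR1, 4 times in FGF2 and 0 times in FGF1 and FGF5. It was present in 64.8% of transcripts of like length for FGFR3, 52.2% for FGFR4 and 58.3% for FGFRL1, so these motifs are common and a match is a description of the sequence only.

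The 30-base windows below (hg38, written 5′ to 3′ in the sense of the transcript, DNA letters, motif in capitals) hold the ACTAAC matches of FGF2 and FGF5, the ligands lower in siQKI cells, and the TGCATG matches of FGFR3, FGFR4 and FGFRL1, the receptor genes that moved most in siRBFOX2 cells. All 7 lie within a single exon on the plus strand.
FGF2 3′ UTR, chr4:122895059-122895088: ttaacttgaatcACTAACtgactgaaaatt
FGF2 3′ UTR, chr4:122897707-122897736: aacataactttcACTAACacacacatatgt
FGF5 3′ UTR, chr4:80289557-80289586: aaacatctccagACTAACatgtcagtttta
FGF5 3′ UTR, chr4:80290074-80290103: cgaaactatggcACTAACcaaaaacttgca
FGFR3 3′ UTR, chr4:1808762-1808791: cttggggcccagTGCATGgtggccagaggt
FGFR4 coding sequence, chr5:177090965-177090994: tggagaagaaacTGCATGcagtacctgcgg
FGFRL1 3′ UTR, chr4:1025519-1025548: acactgcctggaTGCATGtatgcacacaca

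In PANC-1 siCtrl cells the members spanned a wide range of levels per kilobase of exon. The length was that of all GENCODE exons of a gene merged, 13.842 kb for FGFR1, 7.578 kb for FGFR2 and 6.775 kb for FGF2. Their representative transcripts were 5900, 3061 and 6652 bases long. The order of genes therefore depends on the length used, and transcript lengths would place FGFR1 and FGFR2 higher. FGFRL1 was highest at 6.75 ± 0.142 rescaled counts per kb, followed by FGF5 at 3.08 ± 0.220 and FGF2 at 3.01 ± 0.0608, whose libraries overlapped. FGFR1 followed at 2.45 ± 0.0698 rescaled counts per kb and FGFR2 at 1.70 ± 0.0681, each apart from its neighbours. FGF18 (0.586 ± 0.1005), FGFR4 (0.420 ± 0.0422) and FGFR3 (0.415 ± 0.111) were lower, and FGFR4 and FGFR3 overlapped. FGF19 (0.0228 ± 0.0118) and FGF1 (0.0219 ± 0.0149) were lowest and overlapped. By merged exon length FGFRL1 was also the highest member per kb in siQKI and siRBFOX2 cells, with no overlap with the next gene.

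**Figure D1:**
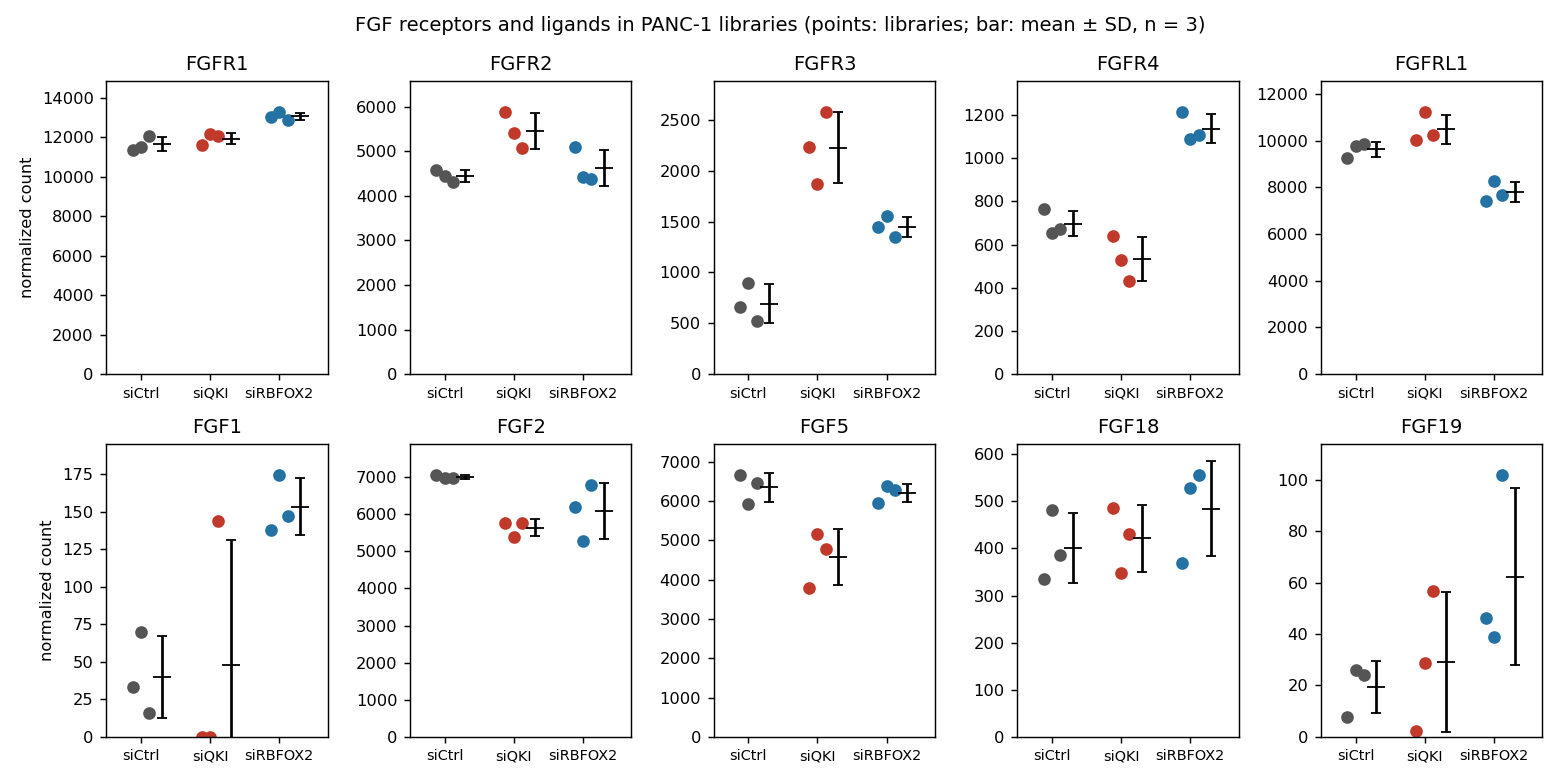
Normalized counts (linear axis from 0) of the 10 FGF genes in the PANC-1 libraries, by group on the x axis; each point is a library and the bar is the mean ± SD (n = 3, cut at 0 for FGF1). FGFR3 was higher in every library of both knockdowns than in any siCtrl library, whereas FGFR4 was highest in siRBFOX2 and FGF5 lowest in siQKI cells.

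FGFR3 rose in both knockdowns. It signals through the same kinase cascade as the other receptors and lies at chr4:1793293-1808872 (plus strand). FGFR3 measured 658, 899 and 521 normalized counts in the siCtrl libraries, 2235, 1872 and 2574 in siQKI, and 1444, 1551 and 1347 in siRBFOX2. No library of a knockdown overlapped the controls. The log2 fold change, on log2(normalized count + 1), was 1.71 (SE 0.166, adjusted p = 1.51e-06) in siQKI cells. In siRBFOX2 cells it was 1.10 (SE 0.166, adjusted p = 1.78e-04). Compared directly, FGFR3 was higher in siQKI than in siRBFOX2 cells by 0.61 (adjusted p = 0.0150), a difference that lost its call without a mean-variance trend (adjusted p = 0.101), without siQKI replicate 3 (adjusted p = 0.0795) or without siRBFOX2 replicate 3 (0.0574).

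The end of FGFR3, including the window printed above, overlaps the end of LETM1, which runs on the opposite strand in the annotation, and counting by strand is not stated. LETM1 measured 4298 ± 207 normalized counts in siCtrl, 5235 ± 241 in siQKI and 5185 ± 112 in siRBFOX2 cells. It rose as well, by 0.28 and 0.27 on the log2 scale, and its part in the FGFR3 values was not tested.

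FGFR4, the main receptor for FGF19, is located at chr5:177086886-177098144. It measured 766, 655 and 671 normalized counts in siCtrl and 1211, 1087 and 1107 in siRBFOX2 libraries, with no overlap. It rose in siRBFOX2 cells by 0.70 (SE 0.150, adjusted p = 0.00254). In siQKI libraries it measured 640, 527 and 432 normalized counts, each below the lowest control. That difference, -0.40 with a 95% interval of -0.72 to -0.08, did not pass the threshold (adjusted p = 0.0515). It passed without siQKI replicate 1 (-0.54, adjusted p = 0.0130). The direct comparison separated the knockdowns: FGFR4 was lower in siQKI than in siRBFOX2 cells, with a log2 difference of -1.11 (adjusted p = 7.43e-05), a call kept under all 17 alternative settings.

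FGFRL1, which binds FGFs without kinase signalling and is located at chr4:1009936-1026897, moved against the other called receptors in siRBFOX2 cells. It measured 9274, 9761 and 9857 normalized counts in siCtrl and 7442, 8264 and 7683 in siRBFOX2 libraries. The groups did not overlap, and the log2 fold change was -0.31 (SE 0.0571, adjusted p = 9.64e-04). The siQKI libraries measured 10046, 11218 and 10234 normalized counts, all above the controls, but the difference of 0.12 did not pass (adjusted p = 0.117). It passed when libraries were rescaled by their upper quartile (0.19, adjusted p = 0.0194). FGFRL1 was higher in siQKI than in siRBFOX2 cells by 0.43 (adjusted p = 6.45e-05).

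FGFR1, the receptor with the highest normalized counts, changed little. It measured 11374, 11513 and 12061 normalized counts in siCtrl, 11607, 12152 and 12040 in siQKI, and 13038, 13254 and 12855 in siRBFOX2 libraries. The siRBFOX2 libraries lay above all others, and the change was 0.16 (SE 0.0443, adjusted p = 0.0122). In siQKI cells the difference was 0.03, with a 95% interval of -0.06 to 0.13 (adjusted p = 0.606). The direct difference of -0.13 missed the threshold (adjusted p = 0.0503). It passed in 3 of 17 alternatives, with pseudocounts of 0.1 and 10 (adjusted p = 0.0487 and 0.0481) and with a mean of at least 50 required (0.0384).

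FGFR2 is known for the epithelial IIIb and mesenchymal IIIc isoforms, which gene totals cannot tell apart. It measured 4573, 4440 and 4318 normalized counts in siCtrl and 5868, 5407 and 5063 in siQKI libraries, without overlap. It rose in siQKI cells by 0.29 (SE 0.0724, adjusted p = 0.00568). The siRBFOX2 libraries, at 5090, 4417 and 4379, overlapped the controls (0.06, 95% interval -0.10 to 0.21, adjusted p = 0.639). The direct difference of 0.24 (adjusted p = 0.0298) lost its call in 5 of 17 alternative settings, namely without a mean-variance trend (adjusted p = 0.103), without siQKI replicate 1 (adjusted p = 0.134) and replicate 2 (0.0717) and without siRBFOX2 replicate 2 (0.0950) and replicate 3 (0.114).

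The FGFR2 locus used by the authors' annotation spans 1051.86 kb, against 120.125 kb in GENCODE, and covers WDR11 and the end of ATE1. WDR11 measured 13892 ± 780 normalized counts in siCtrl, 13220 ± 145 in siQKI and 15083 ± 592 in siRBFOX2 cells. ATE1 fell in both knockdowns, by 0.28 and 0.29 on the log2 scale. In HPAF-II, FGFR2 was at 94.1 ± 10.96 normalized counts while WDR11 was at 10058 ± 566 and ATE1 at 4912 ± 536.

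**Figure D2:**
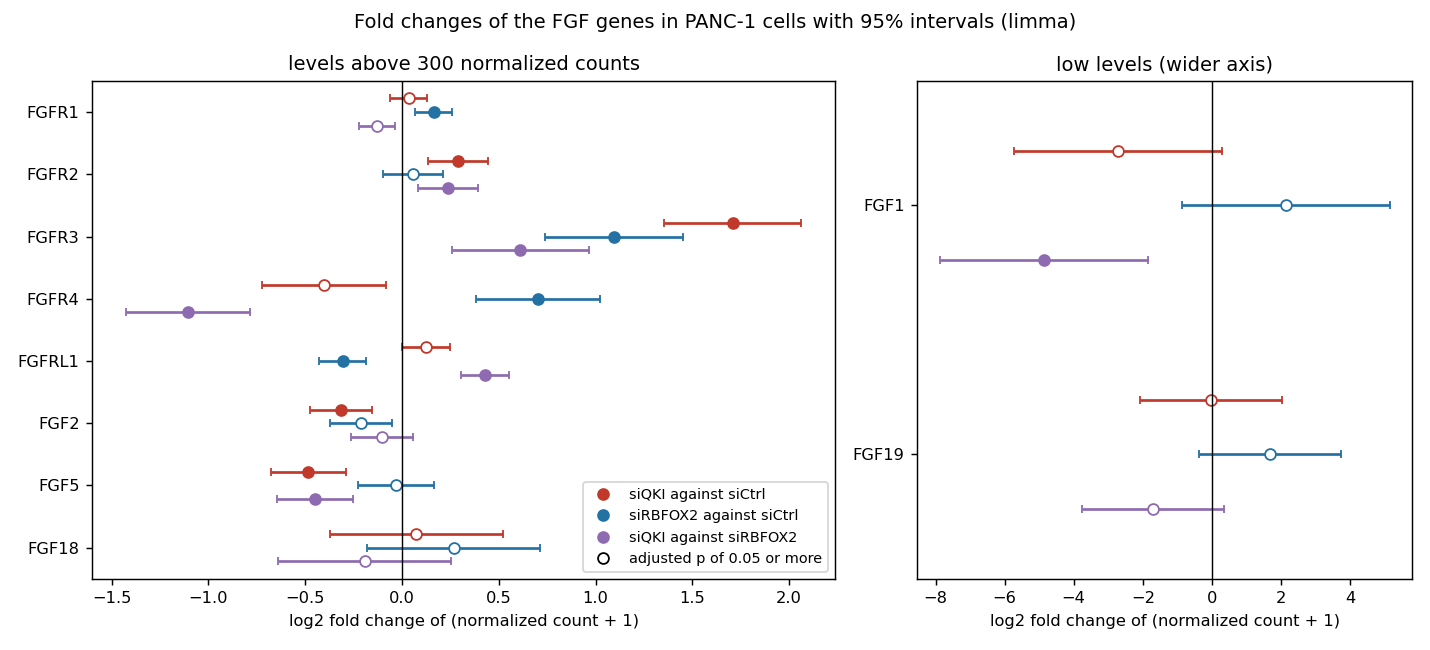
Log2 fold changes of log2(normalized count + 1) (x axis) with 95% intervals for each FGF gene (y axis) in the 3 PANC-1 comparisons, 8 genes at left and the 2 low ligands at right on a wider axis; filled points passed an adjusted p of 0.05. The FGFR3 points of both knockdowns lie right of 0, and for FGFR4 and FGFRL1 the knockdowns lie on opposite sides.

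Among the ligands, FGF5 and FGF2 fell in siQKI cells. FGF5, a mitogen best known for ending hair growth, measured 6659, 5936 and 6452 normalized counts in siCtrl and 3778, 5156 and 4792 in siQKI libraries. Every siQKI library was below every control, and the fall was -0.48 (SE 0.0916, adjusted p = 7.37e-04). The siRBFOX2 libraries, at 5944, 6392 and 6278, lay within the control range (-0.03, 95% interval -0.23 to 0.16, adjusted p = 0.845). FGF5 was lower in siQKI than in siRBFOX2 cells, with a log2 difference of -0.45 (adjusted p = 0.00219), called under all 17 alternatives.

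FGF2, the basic FGF that is released without a signal peptide, measured 7056, 6975 and 6986 normalized counts in siCtrl and 5767, 5385 and 5768 in siQKI libraries. The groups did not overlap, and FGF2 fell by 0.31 on the log2 scale (SE 0.0754, adjusted p = 0.00450). The siRBFOX2 libraries measured 6205, 5275 and 6783 normalized counts, also below the controls but more widely spread, and the difference of -0.21 missed the threshold (adjusted p = 0.0521). It passed without siRBFOX2 replicate 3 (-0.29, adjusted p = 0.00805). The difference between the knockdowns, -0.10 with a 95% interval of -0.26 to 0.06, did not pass, except without siRBFOX2 replicate 2 (-0.20, adjusted p = 0.0306). The end of FGF2, with both windows printed above, overlaps NUDT6, which differed by -0.22 and -0.21 without passing the test.

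FGF18, FGF1 and FGF19 had the lowest mean normalized counts of the members in PANC-1 cells. Per kb, the siCtrl mean of FGF18 was above those of FGFR4 and FGFR3. FGF18, which signals mainly through FGFR3 in cartilage, measured 335, 481 and 386 normalized counts in siCtrl and 487, 347 and 430 in siQKI libraries. Its siRBFOX2 libraries measured 369, 529 and 556, and neither difference passed (0.07 and 0.27, adjusted p = 0.833 and 0.404). All 3 groups overlapped.

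FGF1, the acidic FGF that binds every FGF receptor, measured 33.5, 70.0 and 16.1 normalized counts in siCtrl and 138, 174 and 147 in siRBFOX2 libraries. It was listed at 0 in siQKI replicates 1 and 2 and at 144 in replicate 3. Neither knockdown passed against siCtrl (siQKI -2.73, adjusted p = 0.162, and siRBFOX2 2.14, adjusted p = 0.308). The siQKI value runs against the group means, which were 47.9 ± 82.9 in siQKI and 39.9 ± 27.5 in siCtrl, and it was -4.90 with a pseudocount of 0.1 and -0.85 with a pseudocount of 10. Without siQKI replicate 3 the siQKI difference was -5.12 (adjusted p = 3.03e-04) and the siRBFOX2 difference passed as well (adjusted p = 0.0450), as it did when only these 2 groups were fitted (adjusted p = 0.00883). The knockdowns differed from each other by -4.87 (95% interval -7.88 to -1.86, adjusted p = 0.0215), although their libraries overlapped. The size depends on the pseudocount, at -7.08 with 0.1 and -2.71 with 10. The call was lost without a mean-variance trend (adjusted p = 0.140) and without any of siQKI replicates 1 and 2 (adjusted p = 0.0942 and 0.0968) or siRBFOX2 replicates 1, 2 and 3 (0.0532, 0.0586 and 0.0582).

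FGF19 measured 7.66, 26.0 and 24.1 normalized counts in siCtrl, 2.28, 28.8 and 56.6 in siQKI, and 46.3, 38.7 and 102 in siRBFOX2 libraries. The siRBFOX2 libraries lay above the controls, but neither the difference of 1.68 (adjusted p = 0.234) nor that of siQKI (-0.02, adjusted p = 0.991) passed. With 95% intervals of -0.37 to 3.73 and -2.07 to 2.03, the data bound these changes only loosely.

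In all, 4 of the 10 members passed in siQKI cells (FGFR2 and FGFR3 higher, FGF2 and FGF5 lower), where 33.0% of all tested genes passed (14.9% higher, 18.1% lower). In siRBFOX2 cells 4 passed (FGFR1, FGFR3 and FGFR4 higher, FGFRL1 lower) against 26.5% of all genes. These were 4 of the 5 receptor genes and 0 of the 5 ligands in the limma test, where FGF2 was the single ligand with an unadjusted p under 0.05 (0.0140). The median log2 fold change of the members was 0.01 in siQKI and 0.22 in siRBFOX2 cells, against 0.03 and 0.01 over all tested genes. The direct comparison of the knockdowns called 6 members against 21.5% of all genes, and 3 without siRBFOX2 replicate 3. Of the 6, FGFR2, FGFR3 and FGFRL1 were higher in siQKI (9.93% of all genes) and FGFR4, FGF1 and FGF5 lower (11.6%). With a fold change of at least 1.5 required, FGFR3 remained in siQKI (9.03% of all genes), FGFR3 and FGFR4 in siRBFOX2 cells (5.71%) and FGFR3, FGFR4 and FGF1 in the direct comparison (4.33%).

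Several members differed widely between the cell lines. The tables of the lines were normalized separately, so no test was run, and levels are given as rescaled counts. FGFR1 measured 33.6, 33.1 and 34.9 rescaled counts in PANC-1 siCtrl and 1.4998, 1.62 and 1.82 in HPAF-II libraries. FGFR2 measured 13.5, 12.8 and 12.5 in PANC-1 and 0.291, 0.351 and 0.352 in HPAF-II. Both receptors were lower in every HPAF-II library, with mean log2 differences of -4.36 and -5.25.

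FGFR3 and FGFR4 showed the opposite order. FGFR3 measured 1.94, 2.58 and 1.51 rescaled counts in PANC-1 siCtrl and 20.3, 17.2 and 39.7 in HPAF-II libraries. FGFR4 measured 2.26, 1.88 and 1.94 rescaled counts in PANC-1 and 24.7, 22.9 and 45.3 in HPAF-II. The mean log2 differences were 3.60 and 3.86, and no libraries overlapped. FGFRL1 overlapped between the lines: its HPAF-II libraries measured 23.6, 22.2 and 33.7 rescaled counts, against 27.4, 28.0 and 28.5 in PANC-1 siCtrl.

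The ligands also separated the lines. FGF2 measured 20.8, 20.03 and 20.2 rescaled counts in PANC-1 siCtrl and 0.159, 0.168 and 0.0161 in HPAF-II libraries, a mean log2 difference of -7.79. The FGF2 value of HPAF-II replicate 3 lay near the pseudocount of 0.01, so the size of this difference depends on the pseudocount. FGF5, at 17.05 to 19.7 rescaled counts in PANC-1 siCtrl, and FGF1, at 0.0466 to 0.201, were listed at 0 in all 3 HPAF-II libraries. FGF19 measured 28.5, 20.9 and 49.8 rescaled counts in HPAF-II and 0.0226, 0.0746 and 0.0699 in PANC-1 siCtrl libraries. FGF19 was thus the largest difference among the members higher in HPAF-II, at 9.002 on the log2 scale, or 7.66 with a pseudocount of 0.1 in place of 0.01. FGF18 was higher in HPAF-II by 1.34, at 2.08 to 4.35 against 0.989 to 1.38 rescaled counts.

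**Figure D3:**
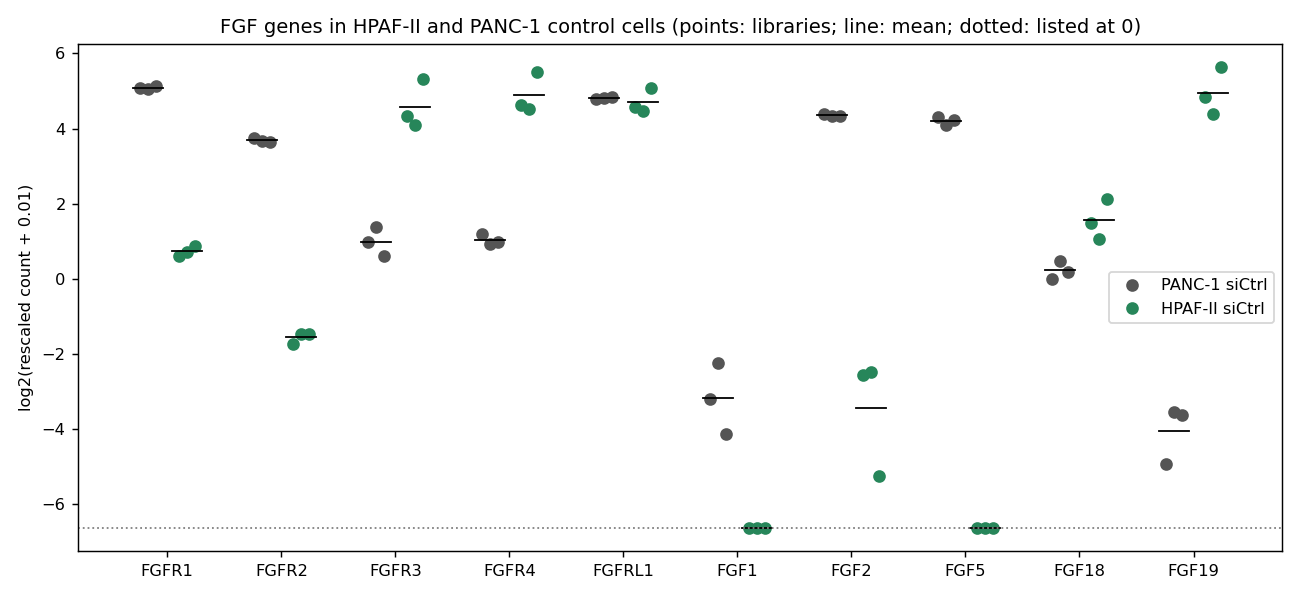
Level of the 10 FGF genes as log2(rescaled count + 0.01) (y axis) in the 3 PANC-1 siCtrl and 3 HPAF-II siCtrl libraries (points; line, mean), with the dotted line at a value of 0. FGFR1, FGFR2, FGF2 and FGF5 are high in PANC-1 and low or at 0 in HPAF-II, whereas FGFR3, FGFR4 and FGF19 show the reverse.

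Of the 8 members above 0 in both lines, 7 were at least 2-fold apart and did not overlap, where 47.5% of the 21985 genes above 0 in both lines were 2-fold apart and 62.3% did not overlap. Of the 7, 4 were higher and 3 lower in HPAF-II. Over the wider set of 24673 genes with a mean of at least 10 in either line, which includes genes at 0 in the other line, 53.2% were 2-fold apart (26.1% higher, 27.1% lower) and 43.0% were both 2-fold apart and not overlapping. With FGF1 and FGF5 counted, libraries did not overlap for 9 of the 10 members, against 63.7% of that wider set. Per kilobase, HPAF-II was led by FGF19 (13.5 ± 6.13 rescaled counts per kb), FGFR4 (6.42 ± 2.58), FGFRL1 (6.40 ± 1.52) and FGFR3 (5.30 ± 2.52), whose neighbours in this order overlapped. FGF18 (1.54 ± 0.586), FGFR1 (0.119 ± 0.0119), FGFR2 (0.0437 ± 0.00460) and FGF2 (0.0168 ± 0.0125) followed, each apart from the next.

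HPAF-II replicate 3 stood apart from the other two for several members. It held 2.12 times the mean of replicates 1 and 2 for FGFR3, 1.90 times for FGFR4, 1.79 times for FGF18 and 2.02 times for FGF19, and 0.0989 times for FGF2. A ratio of at least 1.5 was seen in 18.8% of 17177 genes with a mean of at least 50. Without this library the HPAF-II means were 18.7 rescaled counts for FGFR3, 23.8 for FGFR4, 24.7 for FGF19 and 0.163 for FGF2. The FGF2 log2 difference was then -6.88 in place of -7.79, and the count of members at least 2-fold apart was 7, as with it.

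The lines differed in cell type markers in the same libraries. Among epithelial and duct markers, 7 of 8 were at least 2-fold higher in HPAF-II and 0 lower, led by KRT7 (7.66 on the log2 scale), CDH1 (6.08) and GATA6 (5.06). Over the wider set of 24673 genes, 26.1% were at least 2-fold higher in HPAF-II and 27.1% lower. The 6 mesenchymal markers summed to 5377 to 5568 rescaled counts in PANC-1 siCtrl, 5139 to 5294 in siQKI, 5493 to 5543 in siRBFOX2 and 2.54 to 19.0 in HPAF-II libraries, mostly from VIM (vimentin). Between the lines 4 of these markers were at least 2-fold lower in HPAF-II, among them VIM (-12.25 on the log2 scale) and the repressor ZEB1 (-4.75). VIM varied widely among HPAF-II libraries (5.26 ± 8.60 rescaled counts). The repressor SNAI2 was higher in HPAF-II (1.54), and CDH2 (N-cadherin) was at 0 in every HPAF-II library. In siQKI cells 3 of the 6 fell, including SNAI2 (-1.38) and ZEB1 (-0.28), and CDH2 rose (0.26), while in siRBFOX2 cells 1 rose (CDH2, 0.22) and 0 fell. The 7 fibroblast markers summed to 12.1 to 13.9 rescaled counts in siCtrl, 25.9 to 29.3 in siQKI, 15.6 to 23.1 in siRBFOX2 and 19.1 to 23.3 in HPAF-II libraries. DCN was at 0 in all PANC-1 libraries, PDGFRA at 0 in HPAF-II, and PDGFRB (1.42 and 0.89) and COL1A1 (0.99 and 0.42) rose in siQKI and siRBFOX2 cells, the PDGFRB call in siRBFOX2 holding in 12 of 17 alternatives. It was lost without siCtrl replicate 3 (adjusted p = 0.120) or siRBFOX2 replicate 2 (0.134) or 3 (0.0988), among others. The COL1A1 call in siRBFOX2 cells was lost without a mean-variance trend (adjusted p = 0.0920). Between the lines COL3A1 (-4.02) and PDGFRB (-1.99) were lower in HPAF-II and COL1A1 was higher (0.64). The 6 leukocyte and endothelial markers summed to 145 to 169, 117 to 119, 127 to 134 and 78.1 to 107 rescaled counts in the same order, mostly from CD68, which fell in both knockdowns (-0.49 and -0.33), and PTPRC was at 0 in siCtrl, siQKI and HPAF-II libraries. Each library came from a culture of 1 cell line, so these values do not count fibroblasts, leukocytes or endothelial cells. In such bulk libraries, fewer cells with a marker and less of its RNA per cell cannot be told apart. The part of these markers in the FGF results was not tested.

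Most of the remaining FGF genes were below the filter on low values. Of 17, 6 were tested in PANC-1, and 0 passed in the limma test of siQKI cells, where 33.0% of all tested genes passed. Across the 17 alternatives 0 to 1 rose and 0 to 1 fell. FGF13 (-2.77) was the 1 gene with an unadjusted p under 0.05, and FGF12 (-1.36), FGF22 (1.60) and FGF14 (1.19) also differed by more than 1 on the log2 scale without passing. In siRBFOX2 cells FGF11, an intracellular FGF homologous factor, rose by 0.36 (adjusted p = 0.0124). FGF12, of the same subfamily, fell from 123 ± 78.6 to 31.1 ± 18.2 normalized counts (-1.96, adjusted p = 0.0384). The FGF11 call held in 14 of 17 alternatives and was lost without siCtrl replicate 3 (adjusted p = 0.0668) or siRBFOX2 replicate 3 (0.0586). The FGF12 call held in 11 and was lost without siCtrl replicate 2 or 3 (adjusted p = 0.0835 and 0.186) or siRBFOX2 replicate 1 or 3 (0.150 and 0.0523). Both genes were lower in HPAF-II than in PANC-1 siCtrl cells (log2 differences of -1.36 and -3.96), while FGF22 (-1.77) and FGF7 (1.01) overlapped between the lines. FGF9 was at 0 in PANC-1 siCtrl and at 0.316 ± 0.236 rescaled counts in HPAF-II, without overlap.

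Of the 15 coreceptors, carriers and partners of FGFs, 13 were tested. In siQKI cells 4 rose and 1 fell (3 to 7 rose across the alternatives, median 0.254), a total of 5 of 13 against 33.0% of all tested genes. FLRT1, a transmembrane protein that binds FGF receptors, rose most, from 496 ± 48.9 to 1602 ± 79.0 normalized counts (1.69, adjusted p = 2.17e-07). The proteoglycan GPC1 rose by 0.38 and the proteoglycan SDC1 fell by 0.30 on the log2 scale. In siRBFOX2 cells 5 rose and 2 fell (2 to 5 rose across the alternatives, median 0.0465), against 26.5% of all genes. FGFBP1, which carries FGFs released from the matrix, differed most (1.09, adjusted p = 0.0478), but its call held in 5 of 17 alternatives and was lost with any 1 library left out (adjusted p up to 0.154). FGFBP3 (0.64) and FLRT1 (0.50) also rose. The FGFBP3 call was lost without siCtrl replicate 3 (adjusted p = 0.0566) or siRBFOX2 replicate 3 (0.0541), and the FLRT1 call without siCtrl replicate 3 (0.0511) or siRBFOX2 replicate 2 (0.0626). Between the lines, FGFBP1 was higher in HPAF-II by 7.44 on the log2 scale and FLRT3 by 4.19, and FLRT1 was lower (-5.03). SDC2 (55.2 ± 2.14 rescaled counts in PANC-1 siCtrl), CDH2 (38.97 ± 1.61), FLRT2 (14.9 ± 1.41), NCAM1 (3.43 ± 0.619) and KL (0.276 ± 0.0391) were at 0 in every HPAF-II library. KLB, the coreceptor of FGF19, was at 0 in PANC-1 siCtrl and siQKI cells, at 1.94 ± 3.35 normalized counts in siRBFOX2 and at 1.53 ± 2.65 in HPAF-II cells.

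The 15 receptor adaptors were all tested, and 3 rose and 6 fell in siQKI cells, where 14.9% of all tested genes rose and 18.1% fell. GAB1, a docking protein, rose by 1.15 (adjusted p = 0.00235), while the adaptor CRKL (-0.83) and the phosphatase PTPN11 (-0.53) fell. In siRBFOX2 cells 2 rose and 6 fell, a total of 8 of 15 against 26.5% of all genes, among them GRB2 (-0.41), which links receptors to SOS1, and CRKL (-0.29), while SOS1 itself rose (0.33). Across the alternatives 3 to 6 fell in siRBFOX2 and 6 to 7 in siQKI cells. Between the lines GAB1 was higher in HPAF-II by 2.52 on the log2 scale, and the ubiquitin ligase CBL (-1.86) and the transcription factor STAT3 (-1.46) were lower. FRS2, an adaptor of FGF and neurotrophin receptors among others, differed by -0.15 in siQKI (adjusted p = 0.194) and fell by 0.25 in siRBFOX2 cells (-0.25, adjusted p = 0.0343).

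The feedback inhibitors and target genes of the pathway fell in both knockdowns. Of 17, all tested, 14 fell and 1 rose in siQKI cells, and 13 fell and 1 rose in siRBFOX2 cells, where 18.1% and 14.5% of all tested genes fell. The median log2 fold change was -0.549 in each, and across the 17 alternatives 12 to 14 and 13 fell. These genes also respond to other receptors that act through ERK. SPRY4, an inhibitor of receptor signalling, went from 54734 ± 2203 normalized counts in siCtrl to 21974 ± 862 in siQKI and 23524 ± 293 in siRBFOX2 cells (-1.32 and -1.22).

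The ETS factor ETV1 fell by 1.23 and the ERK phosphatase DUSP5 by 1.09 on the log2 scale in siQKI cells. DUSP6, another ERK phosphatase, went from 47290 ± 3322 normalized counts to 40576 ± 2031 in siQKI and 17402 ± 1531 in siRBFOX2 cells. EGR1, an immediate early transcription factor, went from 59298 ± 5746 to 41391 ± 5399 and 16631 ± 2690 normalized counts. Both fell less in siQKI than in siRBFOX2 cells, with direct differences of 1.22 for DUSP6 (adjusted p = 7.71e-09) and 1.32 for EGR1 (adjusted p = 5.72e-07). IL17RD, an antagonist of FGF signalling, was the gene that rose in both (0.70 and 0.89).

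**Figure D4:**
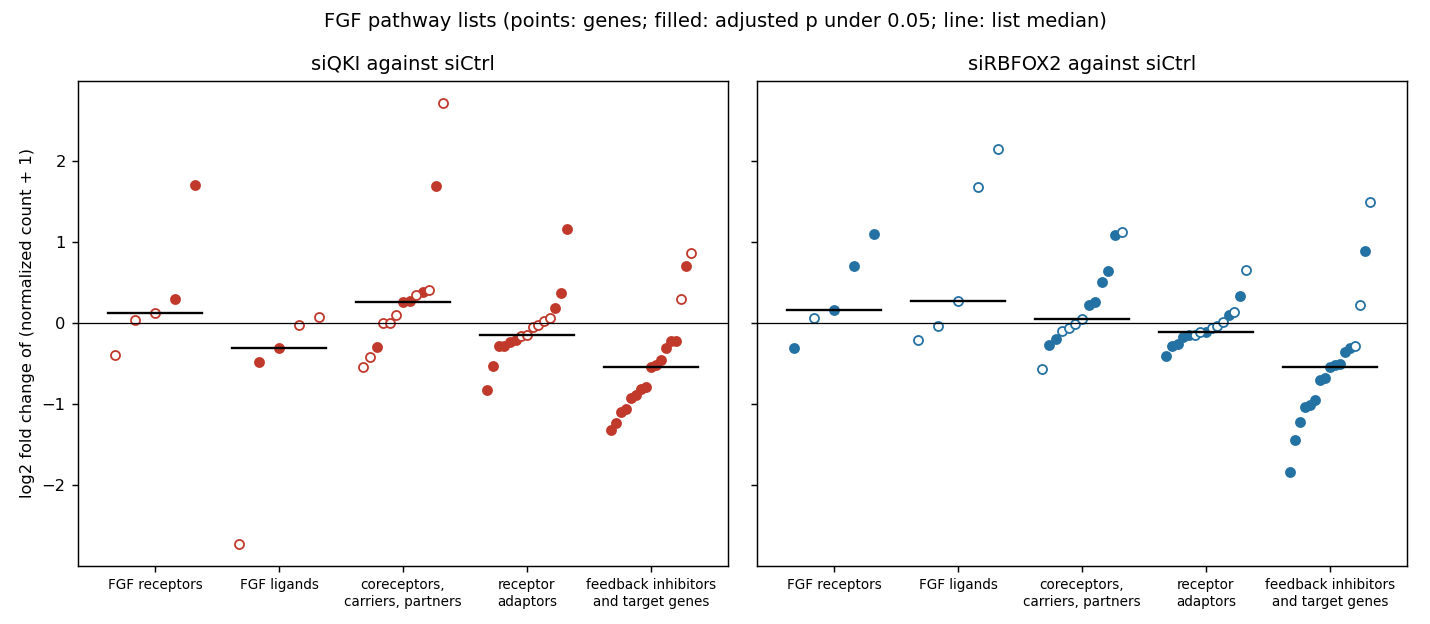
Log2 fold changes of log2(normalized count + 1) (y axis) for the genes of 5 FGF lists (x axis) in siQKI (left) and siRBFOX2 cells (right); each point is a gene, filled where the adjusted p was under 0.05, and the line is the list median. The feedback inhibitors and target genes lie mostly below 0 in both, with a median of -0.549.

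Between the lines the same list was divided. Of 17 genes, 7 were at least 2-fold higher and 3 at least 2-fold lower in HPAF-II. Over the wider set of 24673 genes, 26.1% were higher and 27.1% lower by that rule. DUSP4 (10.63 on the log2 scale), ETV1 (3.18) and FOSL1 (-3.39) differed most, and DUSP6 was higher in HPAF-II by 1.81. DUSP4 was at 0.0510 ± 0.0421 rescaled counts in PANC-1 siCtrl cells, so the size of its difference depends on the pseudocount of 0.01.

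Regulators of FGFR2 splicing were examined because gene totals do not show the isoforms. Of 7, 1 rose and 4 fell in siQKI cells, where 14.9% of all tested genes rose and 18.1% fell. The falls included QKI, the target of that siRNA, and PTBP1, a repressor of exons, from 149172 ± 1534 to 67953 ± 1864 normalized counts (-1.13). ESRP2, an epithelial splicing regulator that promotes the IIIb exon, rose in siQKI (0.44) and siRBFOX2 cells (0.23), the latter call missing the threshold without a mean-variance trend (adjusted p = 0.0507). In siRBFOX2 cells 1 rose and 2 fell (0 to 2 rose across the alternatives), where 14.5% of all tested genes fell. These falls were RBFOX2, the target of that siRNA, and PTBP1 (-0.18). ESRP1, the paralog of ESRP2, was at 165 ± 35.6 rescaled counts in HPAF-II and 0.537 ± 0.183 in PANC-1 siCtrl cells, a log2 difference of 8.26. QKI was lower in HPAF-II (-2.38) and HNRNPA1, another splicing repressor, higher (1.46).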

How the data were processed

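PolyA RNA libraries were read in pairs. Per the submitters' processing notes, STAR 2.7.5a, SAMtools, Picard, FastQC and DESeq2 were used on hg38. The deposited values are a signal: counts per gene of the FAST DB annotation, scaled by the authors with DESeq2 size factors, separately for the 9 PANC-1 and the 3 HPAF-II libraries. Every value is a whole multiple of a step per library (within 0.01), and PANC-1 libraries totalled 292248837 to 376192091 steps, HPAF-II libraries 226697015 to 309720537. Since 82.1% to 84.8% of values up to 30 steps are multiples of 3, a step is not a fragment, and precision was taken from the replicates. Strand and the handling of pairs are not given in the sources used here.

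PANC-1 groups were compared by limma 3.58.1 (R 4.3.3; lmFit, contrasts.fit, eBayes with trend) on values transformed as log2(normalized count + 1). The fit held all 9 libraries without a block and the 22544 genes whose mean reached 10, with Benjamini-Hochberg adjustment and a threshold of 0.05. The median SE was 0.141. The script was tested on simulated data. For the line comparison each library was scaled to sum to 1000000 and values were taken as log2(value + 0.01), with no test. Levels per kb used the merged length of all GENCODE exons of a gene (hg38, as did motifs and member coordinates). Python 3.11.15 with numpy 2.4.6, pandas 2.3.3 and matplotlib 3.10.9 did the rest.

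Named were all members, QKI and RBFOX2, up to 3 genes per list and knockdown with the largest called change and a mean of at least 50, up to 3 per list with the largest difference between the lines, and the 3 genes most like the member with the highest mean; others (FRS2, KLB, DUSP6 and EGR1 between groups, FGF13, IL17RD, overlapping genes) were named after their values were seen. Members and lists were chosen with earlier results of these data known. Alternatives were other pseudocounts, filters, scaling, call rules, a replicate block, no trend, 2 groups only, and each library left out.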

Additional observations from a re-analysis of the deposited data

How the results depend on the processing

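In siQKI cells 4 members passed, 4 to 5 with a library left out, 5 with the replicate number as a block and 1 at a fold of at least 1.5. In siRBFOX2 cells 4 passed, 4 to 5 with a library left out, 5 with the block and 2 at that fold. In the direct comparison 6 passed, 3 to 6 with a library left out (3 without siRBFOX2 replicate 3), 6 with the block, and 3 without a mean-variance trend, at an adjusted p under 0.01 and at a fold of at least 1.5. Over all genes, 7432, 5985 and 4844 passed, 7336, 5891 and 4758 with the block. At a fold of at least 1.5, 2035, 1288 and 977 did, and at an adjusted p under 0.01 3854 did in siRBFOX2 and 3105 in the direct comparison. With a library left out, the counts were 6217 to 7674, 4862 to 5956 and 3903 to 4793.

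Same-numbered libraries did not deviate together (r -0.0325 to 0.0235 over 9 pairs, against -0.0333 to 0.0384 for 18 pairs of other numbers), so the numbers were not taken as pairs. The block added FGFR4 in siQKI (adjusted p = 0.0368) and FGF2 in siRBFOX2 cells (0.0340), and changed no other member's call. Directions turned only for differences that passed in none of the settings or had no test. FGF19 in siQKI cells was 0.18 with a pseudocount of 10, 0.037 with upper-quartile rescaling and -0.87 to 1.199 with a library left out. With a library left out, FGF18 in siQKI was -0.046 to 0.21, FGFR2 in siRBFOX2 -0.014 to 0.094, FGF5 in siRBFOX2 -0.080 to 0.0031 and FGFRL1 between the lines -0.29 to 0.013. A planned count test on the deposited steps was not run, because a step is not a sequenced fragment. Depth in fragments is therefore unknown, and for FGF1 and FGF19 only large changes could have passed. The causes of these shifts were not tested.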

Other observations

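The member with the highest mean over the 9 PANC-1 libraries was FGFR1. Among 17878 genes with a mean of at least 50, the genes whose log2 values over these libraries were most like it were ZNF529-AS1 (Pearson r 0.977), CSF1 (0.976) and ITCH (0.972). All 3 were, like FGFR1, highest on average in siRBFOX2 cells, with log2 differences from siCtrl of 0.46, 0.30 and 0.09. They were picked by likeness to FGFR1 over these same libraries, so this shared order follows largely from the choice. ZNF529-AS1 is an antisense gene, and without counting by strand its reads cannot be told from those of its partner.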
